A study of Mus musculus with 50 samples.

Results

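Zonation of hepatocytes was examined in mouse liver by ordering 20268 hepatocyte-sized cells, of 52132 segmented cells in all, by their distance from the nearest cell with a high level of Glul. Hepatocytes of the liver lobule differ with their place between the portal tract, where blood enters, and the central vein, where it leaves. Glul encodes glutamine synthetase, which joins ammonia to glutamate, and its transcripts are known to mark a narrow ring of hepatocytes around the central vein that is maintained by Wnt signals from the vein's endothelium. Hepatocytes next to the portal tract are known instead for urea synthesis and gluconeogenesis, and the bile ducts, lined by cholangiocytes, run in that tract. Glul-high cells therefore served here as landmarks of the central vein.

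The livers came from HIRA fl/fl C57BL/6 mice (HIRA KO) and from wildtype C57BL/6 mice (control). Mice of both groups had been injected with AAV8-TBG-Cre, a virus whose promoter restricts Cre to hepatocytes, at 6 months of age, and livers were collected 12 months later, at 18 months. HIRA is a chaperone that places histone H3.3 in chromatin, and Hira was not a target of the panel, so its loss could not be checked here. Transcripts of 1000 genes were decoded in situ by CosMx imaging on sections of 5 µm, in 50 fields of view that form 6 tissue areas, 3 of each group. The series' design counts 3 mice per group, but the labels tie no field to a mouse, so the area was taken as the replicate and p-values measure the spread between areas, which may be technical. Each genotype kept to its own side of the slide, so genotype and slide side cannot be told apart.

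Of 52132 segmented cells, 20578 were of hepatocyte size (15000 to 50000 square pixels, the pixel size not being stated, and at least 20 gene counts). A cell was called Glul-high with at least 4 Glul counts that made up at least 3% of its gene counts. These were 475 cells in 33 of the 50 fields of view, and the 310 of them that were of hepatocyte size were left out of the comparison. The remaining 20268 cells were ranked within each area by their distance and split into 3 zones of equal cell number, the near zone (6758 cells), the middle zone (6754 cells) and the far zone (6756 cells). Markers of hepatocytes (9 measured, such as Ttr, Apoa1 and Arg1) took 5.90% to 7.07% of gene counts of these cells in the control areas and 8.66% to 12.0% in the HIRA KO areas, against 3.45% to 4.74% and 5.00% to 7.20% in smaller cells of the same areas. Markers of other cell types still took 5.92% to 7.54% of their counts, and no cell type was assigned to single cells. Summed over an area and a zone, the cells held 136527 to 322289 gene counts, and 0 cells were shared between areas.

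The Glul-high cells were themselves mostly grouped. Of the 475, 414 had at least 2 others within 500 pixels. Control areas 1, 2 and 3 held 35, 130 and 87 of them, and HIRA KO areas 1, 2 and 3 held 12, 33 and 178. Their median Glul count was 10 and the highest 107. Just inside the limits lay 54 cells with exactly 4 Glul counts, and just outside them 63 cells with 3 counts at the same share. No order between the groups can be read from these numbers, because each area was sampled in only 8 or 9 fields and a single field held up to 85 Glul-high cells.

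**Figure D1:**
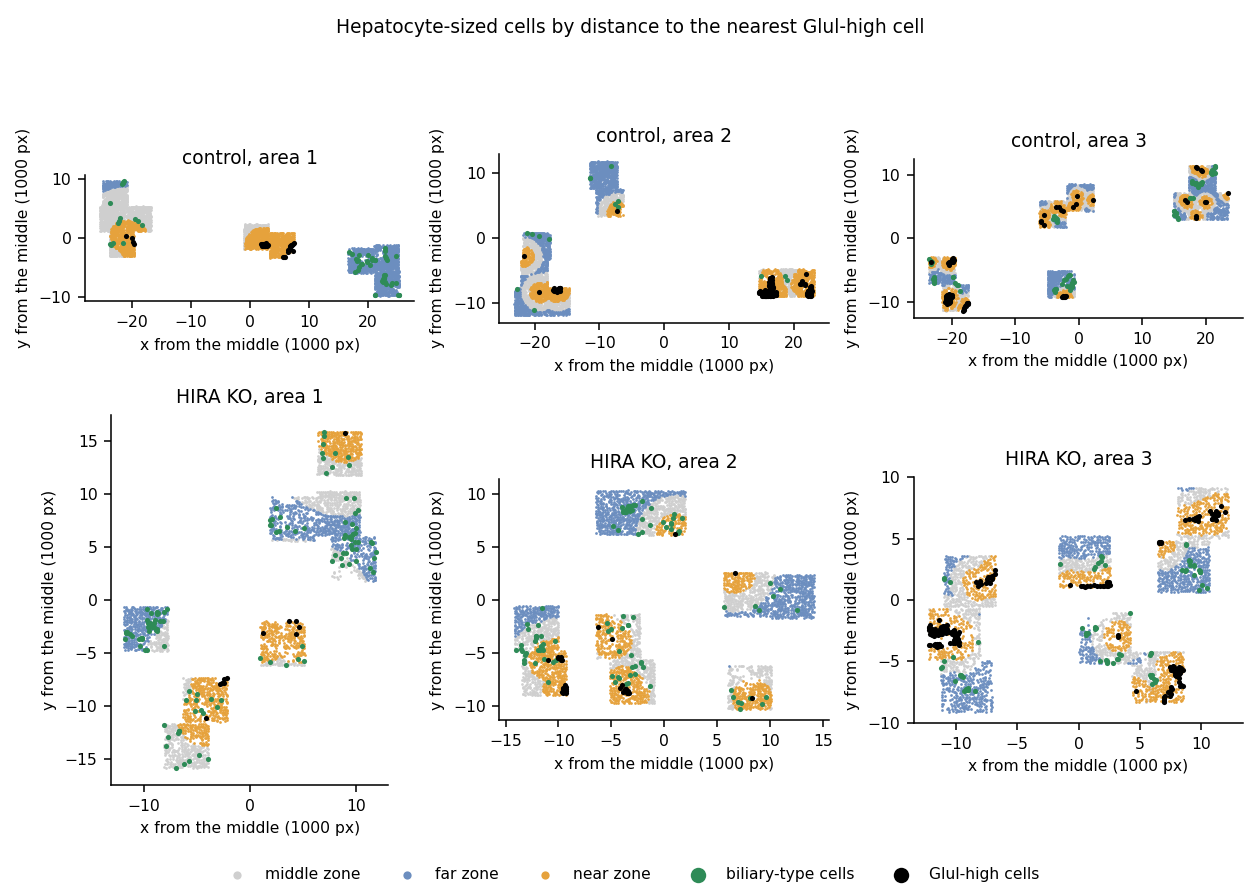
Positions of the cells in the 6 tissue areas, in 1000 pixels from the middle of each area. Orange, grey and blue points are hepatocyte-sized cells of the near, middle and far zone, black points are the 475 Glul-high cells and green points are the 461 biliary-type cells; whole fields of view hold no Glul-high cell, and in control area 1 and HIRA KO area 1 the far zone lies wholly in such fields.

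The map of the cells shows what the distance measured. The median distance to a Glul-high cell was 4383, 2248 and 1273 pixels in control areas 1, 2 and 3 and 4768, 2655 and 1665 pixels in the HIRA KO areas, so that the same zone covered different distances in different areas. The near zone ended between 960 pixels (control area 3) and 2704 pixels (control area 1), and the far zone began between 1672 pixels (control area 3) and 8483 pixels (control area 1). Fields of view were scattered, and 67.5% of the cells of the far zone had their nearest Glul-high cell in another field, against 10.2% of the near zone. That share was 100% in both areas numbered 1 and 18.3% in control area 3. A Glul-high cell in the unimaged tissue between fields would not be seen, so a difference between near and far cells may hold differences between fields as well. The near to far tests of genes were therefore also run with only the Glul-high cells of the same field, with zones taken within each field, and with the field as a block. The latter pair of alternatives was chosen after the data had been seen. With the field as a block, p-values measure the spread between fields and not between areas.

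Glul chose the landmarks, and its level in the other cells is given as a description only. It was 2395, 3476 and 3724 CPM (counts scaled to a fixed total of gene counts) in the near zone of control areas 1, 2 and 3 and 1739, 2116 and 3407 CPM in that of the HIRA KO areas. In the far zone it was 1934, 2176 and 1663 CPM in the control areas and 1537, 1472 and 1667 CPM in the HIRA KO areas. The near zone was higher in each of the 6 areas, between 1.13 and 2.24 times the far zone. With each area cut into sixths of its cells, the excess lay in the first sixth, at 3803 ± 1372 CPM (SD, n = 6 areas), while the second sixth (1768 ± 396 CPM) was already at the level of the last (1773 ± 377 CPM). The median distance of cells in the first sixth was 376 to 962 pixels across areas. The near zone of an area was thus wider than the band of cells with more Glul.

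Across the 997 genes tested, with Glul left out, few differed between the near and the far zone. Spp1, Clu and Tm4sf1, all known from epithelial cells, were lower near Glul-high cells and Ighm, an immunoglobulin gene, was higher, by edgeR's quasi-likelihood test on sums per area with the area as a block, at an adjusted p under 0.05. These were 4 of 997 genes, or 0.401% (0.301% lower and 0.1% higher). An unadjusted p under 0.05 was reached by 60 genes (6.02%), and 35 genes (3.51%) had 1 direction in 6 of 6 areas, 26 of them lower near (2.61%) and 9 higher near (0.903%). The number called was 9 with landmarks of hepatocyte size only and 0 with landmarks that had 2 others within 500 pixels.

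Spp1 encodes osteopontin, a secreted glycoprotein that in normal liver is made mainly by cholangiocytes. Its level in the near zone was 456, 374 and 481 CPM in control areas 1, 2 and 3 and 677, 578 and 325 CPM in the HIRA KO areas. In the far zone it was 1010, 493 and 935 CPM in the control areas and 837, 676 and 537 CPM in the HIRA KO areas. Every area was lower near Glul-high cells. The log2 fold change, near over far, was -0.59 ± 0.10 (SE, edgeR, adjusted p = 0.000327). Spp1 was sparse in these cells, with a mean of 137.2 counts per sum, just under the 145.2 counts of the highest of the 10 negative probes.

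Clu encodes clusterin, a secreted chaperone, and was listed among the biliary markers. It was at 3363, 2005 and 1999 CPM in the near zone of the control areas and at 3996, 3601 and 2696 CPM in that of the HIRA KO areas. The far zone held 4611, 2129 and 3659 CPM in the control areas and 5407, 4354 and 3952 CPM in the HIRA KO areas. Clu was lower near in 6 of 6 areas, although by little in control area 2 (log2 fold change -0.44 ± 0.10, adjusted p = 0.0151, edgeR). Tm4sf1, which encodes a small membrane protein of epithelial and endothelial cells, was at 401 to 822 CPM in the near and at 478 to 920 CPM in the far zone, again lower near in every area (log2 fold change -0.40 ± 0.08, adjusted p = 0.00756, edgeR). Tm4sf1 was sparse too, with a mean of 145.6 counts per sum, barely above the 145.2 counts of the highest negative probe.

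**Figure D2:**
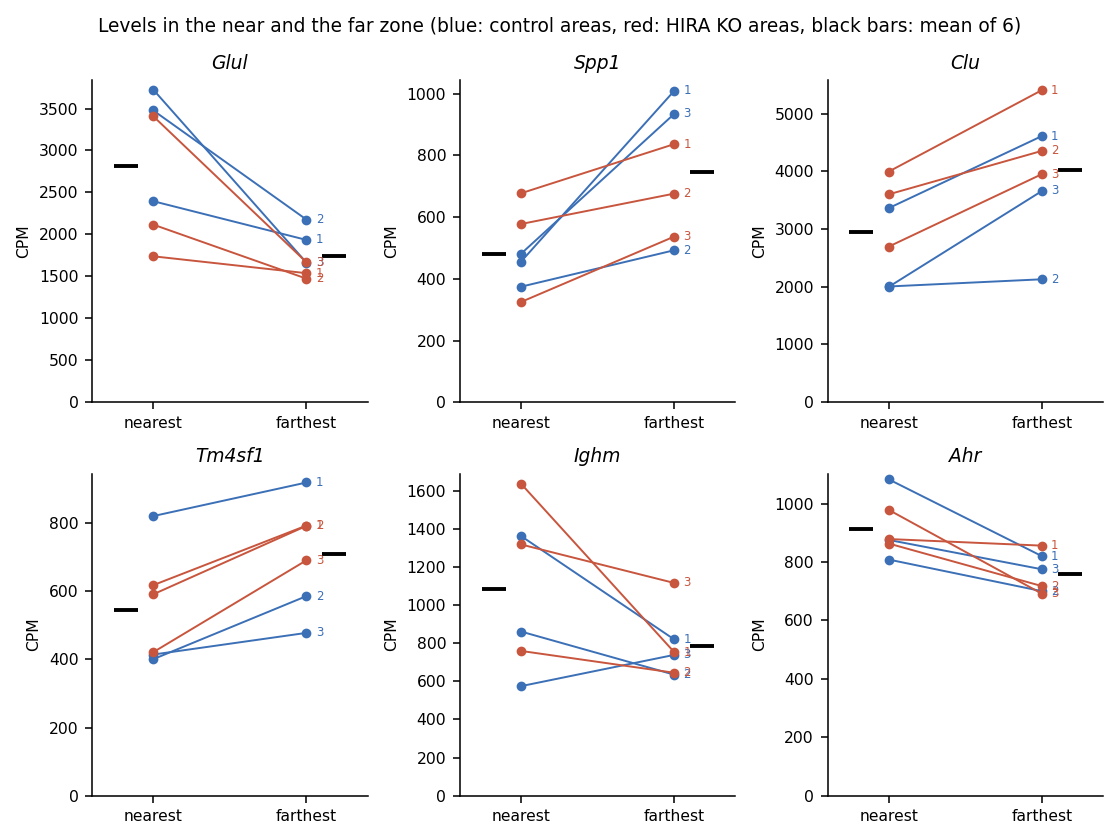
Level in the near and the far zone of each area for Glul, Spp1, Clu, Tm4sf1, Ighm and Ahr, in CPM, with the 2 zones of an area joined by a line (blue, control; red, HIRA KO; numbers, area; black bars, mean of 6 areas). Spp1, Clu and Tm4sf1 were lower near in 6 of 6 areas, Ahr was higher near in 6 of 6, and Ighm was higher near in 5 of 6; Glul chose the landmarks and is a description.

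Values for the biliary list as a whole and for the position of biliary-type cells stand beside these genes. Both include Spp1 and Clu and are therefore not separate from them. The 8 biliary markers together took 0.635% to 0.905% of gene counts in the near and 0.739% to 1.16% in the far zone, and were lower near in 6 of 6 areas. Of the 8, Spp1 and Clu passed the test, against 0.401% of all genes, and none passed it in the other direction, with a list median of -0.08 against 0.00 for all genes tested. A positive log2 fold change was found for 3 of the 8. Biliary-type cells, defined by at least 5 counts and 10% of counts in these markers, numbered 461. The median distance to the nearest of them was 10701, 2541 and 1861 pixels from the near zone of control areas 1, 2 and 3, against 781, 1680 and 997 pixels from the far zone. In the HIRA KO areas it was 973, 658 and 1632 pixels from the near and 532, 931 and 974 pixels from the far zone. Cells near Glul-high cells thus lay farther from biliary-type cells in 5 of 6 areas, all but HIRA KO area 2 (exact permutation test of sign changes over 6 areas, two-sided, p = 0.0625, adjusted p = 0.188 over 10 measures). With zones taken within each field of view the mean difference was -29.8 pixels, against 2079 pixels over whole areas, and without control area 1 it was 511 pixels.

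The calls of Spp1, Clu and Tm4sf1 depended on the same choice. With only the Glul-high cells of the same field, 6 genes were called (0.602%), among them Spp1 (log2 fold change -0.73, adjusted p = 0.00021, edgeR), Clu (-0.47, adjusted p = 0.00189) and Tm4sf1 (-0.43, adjusted p = 0.0133). With zones within each field, Spp1 was at -0.47 (adjusted p = 0.11), Clu at -0.25 (adjusted p = 0.127) and Tm4sf1 at -0.23 (adjusted p = 0.624), none of them past the threshold. With the field as a block, over the 20 fields that held at least 20 cells of both zones, none of them was called. Clu was at -0.33 (adjusted p = 0.624, lower near in 16 fields), Tm4sf1 at -0.37 (adjusted p = 0.796, lower near in 15) and Spp1 at -0.12 (adjusted p = 0.953, lower near in 10). When cells with over 10% of their counts in markers of other cell types were left out, which removes cells by Spp1 and Clu among others, no gene was called, and Spp1 stood at -0.33, Clu at -0.21 and Tm4sf1 at -0.37 (adjusted p = 0.051). Spp1 passed the threshold without any 1 of the 6 areas. Clu lost it when any of areas 1 and 3 of either genotype was left out (leave-one-out range of the log2 fold change -0.51 to -0.36), and Tm4sf1 when either control area 2 or 1 of HIRA KO areas 1 and 3 was (-0.46 to -0.35). The part of transcripts from neighbouring cholangiocytes, assigned to hepatocyte-sized outlines, was not tested.

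Ighm encodes the heavy chain of IgM and is made by B cells and plasma cells, not by hepatocytes. It was at 1363, 862 and 575 CPM in the near zone of control areas 1, 2 and 3 and at 1638, 760 and 1319 CPM in that of the HIRA KO areas. The far zone held 820, 635 and 739 CPM in the control areas and 754, 645 and 1117 CPM in the HIRA KO areas. It was higher near in 5 of 6 areas, the exception being control area 3 (log2 fold change 0.46 ± 0.10, adjusted p = 0.00756, edgeR). Ighm and Spp1 fell outside the naming rule for called genes, Ighm by the exception and Spp1 by its counts, and are given because only 4 genes were called. Ighm lost the call and its direction (-0.01, adjusted p = 0.989) when only Glul-high cells of hepatocyte size served as landmarks, and lost the call when control area 1, control area 2 or HIRA KO area 1 was left out (leave-one-out range 0.31 to 0.55). With landmarks of the same field it was at 0.64 (adjusted p = 0.0288, edgeR) and with zones within each field at 0.62 (adjusted p = 0.11). With the field as a block it was at 0.17 (adjusted p = 0.953), higher near in 10 of the 20 fields, and without cells holding over 10% of other cell types' markers at 0.09 (adjusted p = 0.822). DESeq2 called Spp1 and Clu but neither Ighm nor Tm4sf1. The 14 lymphoid markers tested had a median of 0.04, with 1 called (0.401% of all genes were) and 4 at an unadjusted p under 0.05 (6.02% of all genes), all 4 higher near.

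The known zonation genes were mostly not on the panel. Of 27 genes listed as pericentral, beside Glul, 2 were measured, and of 28 listed as periportal, 6. Neither list had a call (0 of 2 and 0 of 6, against 0.401% of all genes), and the medians were 0.18 and -0.06 against 0.00 for all genes.

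Ahr, the xenobiotic-sensing receptor that switches on Cyp1a genes, was the pericentral gene with the larger difference. Its level in the near zone was 1083, 809 and 876 CPM in control areas 1, 2 and 3 and 879, 863 and 979 CPM in the HIRA KO areas. In the far zone it was 820, 700 and 775 CPM in the control areas and 856, 718 and 692 CPM in the HIRA KO areas. Ahr was higher near in 6 of 6 areas, with a log2 fold change of 0.27 ± 0.07 that did not pass the threshold over all genes (adjusted p = 0.126, edgeR). With zones within each field of view it was the only gene called of 997 (0.1%), at 954 ± 75.8 CPM near against 743 ± 123 CPM far (SD, n = 6 areas, log2 fold change 0.38, adjusted p = 0.0275, edgeR). In the 20 fields with cells of both zones, it was higher near in 17, although with the field as a block the adjusted p was 0.624 for a log2 fold change of 0.32.

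Along the sixths of cells, Ahr was highest in the first sixth in 6 of 6 areas, at 1019 ± 88.2 CPM, and at 793 ± 135 CPM in the second (SD, n = 6). Of 998 genes with counts, only Ahr and Glul, which set the distances, had their maximum in the first sixth in all 6 areas. In 5 or 6 areas the same held for 8 genes, the other 6 being Glud1, Sod1, Hsp90ab1, Apoc1, Mapk14 and Tpi1. These 6 were picked out after their values had been seen, and no test was made of the pattern. In the opposite direction, 0 genes had their minimum in the first sixth in 6 of 6 areas and 1 gene, Sh3bgrl3, in 5.

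**Figure D3:**
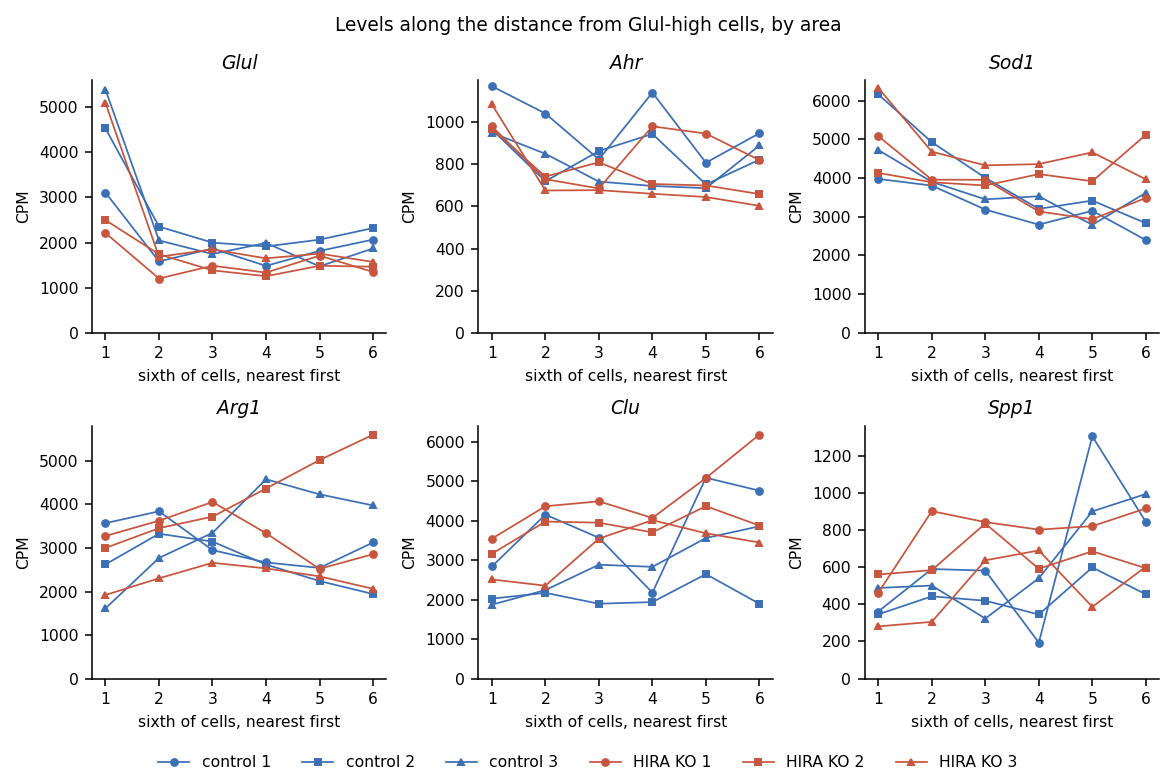
Level of 6 genes in each sixth of an area's cells, from the nearest to Glul-high cells (1) to the farthest (6), in CPM, with 1 line per area (blue, control; red, HIRA KO). Glul and Ahr were highest in the first sixth in 6 of 6 areas and Sod1 in 5 of 6, Arg1 had its minimum there in 3 areas, and Clu and Spp1 were at 2658 and 417 CPM in the first sixth on average against 4002 and 735 CPM in the last.

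Lgr5, a receptor of the Wnt pathway known from pericentral hepatocytes, was at 445 to 508 CPM near and 373 to 525 CPM far, higher near in 5 of 6 areas (log2 fold change 0.09 ± 0.09, adjusted p = 0.909, edgeR). Its mean count lay below that of the highest negative probe. Of the 24 measured genes of the Wnt pathway, which sets the pericentral programme, none was called in either direction, and their median was 0.02. The lowest unadjusted p among them was that of Myc (log2 fold change -0.17 ± 0.07, adjusted p = 0.762, edgeR).

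Among periportal genes, Arg1, the last enzyme of the urea cycle, did not follow one direction. It was at 3607, 2827 and 2126 CPM near in control areas 1, 2 and 3 and at 3507, 3256 and 2344 CPM in the HIRA KO areas, against 2650, 1946 and 4058 CPM and 2589, 5624 and 2453 CPM far. It was lower near in 3 areas and higher near in the other 3 (log2 fold change -0.06 ± 0.13, adjusted p = 0.956, edgeR). Within fields the levels were ordered differently. Arg1 was lower near in 14 of the 20 fields that held both zones, and with the field as a block it was 1 of 2 genes called (log2 fold change -0.41, adjusted p = 0.0463, edgeR). The other was Npr2, the receptor for C-type natriuretic peptide (0.47, adjusted p = 0.0463), higher near in 18 of the 20 fields. That fit took fields of the same area as separate, 13 of control and 7 of HIRA KO. Its p-values therefore do not measure the spread between areas. With zones within each field Arg1 stood at -0.17 (adjusted p = 0.694).

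Pigr, the receptor that carries IgA into bile, was at 737 to 948 CPM near and 836 to 1181 CPM far and was lower near in 5 of 6 areas (log2 fold change -0.17 ± 0.07, adjusted p = 0.762, edgeR). Cdh1, the epithelial cadherin of periportal hepatocytes and bile ducts, was lower near in 3 of 6 areas (-0.11 ± 0.07, adjusted p = 0.883) and, with zones within each field, in 6 of 6 (-0.24, adjusted p = 0.319). Igf1 was at -0.05 ± 0.08 (adjusted p = 0.927). A pair of genes listed as periportal had values in the other direction, Apoa1, the main protein of high-density lipoprotein, at 0.25 ± 0.12 (adjusted p = 0.822, higher near in 4 of 6 areas), and Hmgcs1, an enzyme of cholesterol synthesis, at 0.19 ± 0.07 (adjusted p = 0.657, higher near in 5 of 6). Apoa1 was past the threshold under 3 alternatives, among them that without HIRA KO area 2 (0.39, adjusted p = 0.0343), and at -0.10 with the field as a block.

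**Figure D4:**
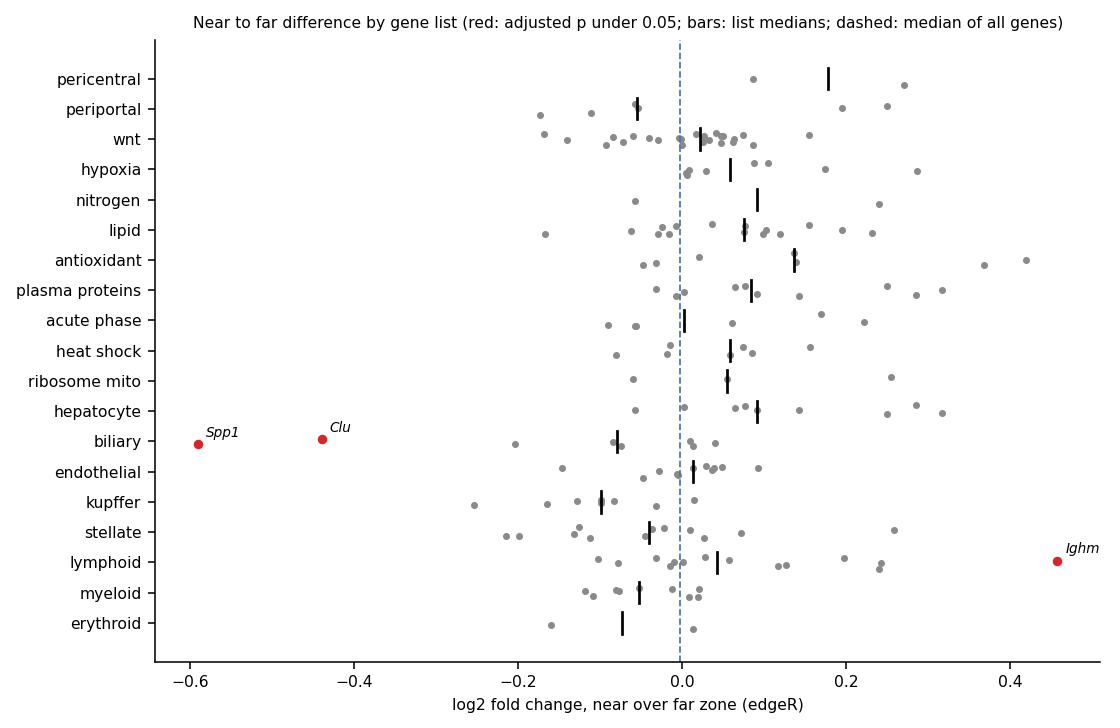
Log2 fold change, near over far zone, of each tested gene by list (edgeR; dots, genes; bars, list medians; dashed line, median of all 997 genes). Spp1 and Clu among the biliary markers and Ighm among the lymphoid markers are the listed genes past an adjusted p of 0.05 (red), and the other lists hold none.

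None of the metabolic and stress lists held a gene past the threshold, and their medians lay between 0.00 and 0.14. In the antioxidant list (7 tested), the largest difference was that of Sod1, the cytosolic superoxide dismutase. It was at 3801, 5332 and 4199 CPM near in control areas 1, 2 and 3 and at 4648, 4057 and 6116 CPM in the HIRA KO areas, against 2603, 2911 and 3152 CPM and 3083, 4789 and 4802 CPM far. Sod1 was higher near in 5 of 6 areas, with HIRA KO area 2 the other way (log2 fold change 0.42 ± 0.11, adjusted p = 0.0878, edgeR). It passed under 5 alternatives, without HIRA KO area 2 with an adjusted p of 4.15e-05 (log2 fold change 0.56).

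Hepatocyte genes had no common direction over the areas. Without HIRA KO area 2, 12 genes were called in place of 4, 9 of them higher near: Ighm, Sod1, Gpx1, Apoa1, Apoc1, Ldha, Atp5e, Atp5b and Rarres2. The 9 hepatocyte markers took 10.04% of gene counts near and 12.8% far in HIRA KO area 2, and 6.83% near and 7.33% far in control area 3. They were higher near in the other 4 areas, at 7.23% and 7.66% near against 5.13% and 5.17% far in control areas 1 and 2, and at 9.84% and 12.2% near against 7.33% and 11.8% far in HIRA KO areas 1 and 3. Apoa1 and Ldha were likewise lower near in both control area 3 and HIRA KO area 2.

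The other lists gave smaller values. Ldha, the lactate dehydrogenase subunit among the 8 hypoxia genes tested, was at 0.29 ± 0.10 (adjusted p = 0.426, edgeR), and all 8 hypoxia genes had a positive value, with a median of 0.06. Pparg, the lipid-storage receptor among 15 genes of lipid metabolism, was higher near in 6 of 6 areas (0.23 ± 0.08, adjusted p = 0.447, edgeR). Glud1, the mitochondrial glutamate dehydrogenase that releases ammonia from glutamate, was at 0.24 ± 0.09 (adjusted p = 0.66). Apoc1 led the plasma proteins (0.32 ± 0.14, adjusted p = 0.791), Crp the acute-phase genes (0.17 ± 0.07, adjusted p = 0.781), Hsp90ab1 the heat shock genes (0.16 ± 0.09, adjusted p = 0.829) and Atp5e, a subunit of ATP synthase, the respiratory and ribosomal genes (0.25 ± 0.08, adjusted p = 0.363).

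Markers of the remaining cell types had no call. Of the 8 Kupffer cell markers tested, 7 had a negative value, with a median of -0.10, and the lowest p was that of the scavenger receptor Marco (-0.25 ± 0.09, adjusted p = 0.565, edgeR). Cdh5 of endothelium (-0.15 ± 0.07, adjusted p = 0.827), Pdgfrb of stellate cells (-0.20 ± 0.08, adjusted p = 0.708), H2-Aa of antigen-presenting cells (-0.11 ± 0.08, adjusted p = 0.895) and Hbb of erythrocytes (-0.16 ± 0.08, adjusted p = 0.822) had the lowest p of their lists. Of the endothelial, stellate, myeloid and erythroid lists, 0 genes were called.

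Transcript counts per cell were higher near Glul-high cells in every area, a difference that did not pass after adjustment over the 10 measures compared. The median gene count per cell was 146, 228 and 138 near in control areas 1, 2 and 3 and 211, 238 and 274 in the HIRA KO areas, against 124, 177 and 126 and 177, 230 and 248 far. It was higher near in 6 of 6 areas, by 25.4 ± 15.7 counts (SD, n = 6, exact permutation test of sign changes, two-sided, p = 0.03125, the smallest that 6 areas allow, and 0.156 adjusted over 10 measures). Per 1000 square pixels of cell area, the difference was 0.88 ± 0.72 counts and again positive in 6 of 6 areas (exact p = 0.03125, adjusted p = 0.156). Median cell area was larger near in 5 of 6 areas, by 776 ± 1026 square pixels (exact p = 0.0938, adjusted p = 0.188). Counts of negative probes, which match no transcript, were 39.4 ± 11.9 per megapixel near and 36.7 ± 9.19 far, higher near in 5 of 6 areas (exact p = 0.25, adjusted p = 0.417). Whether signal that matches no transcript, or cell size, accounts for the higher counts was not tested.

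The protein stains were not used to choose the cells. Median B2M intensity was lower near in 5 of 6 areas, by 266 ± 325 units from 3018 ± 581 far (SD, n = 6, exact permutation test of sign changes, p = 0.0938, adjusted p = 0.188), and with zones within each field it was lower near in 6 of 6 areas (mean difference -212, exact p = 0.03125). PanCK (mean difference -59.6, exact p = 0.406), CD3 (-16.2, exact p = 0.406), CD45 (-22.6, exact p = 0.531) and DAPI (8.33, exact p = 0.938) differed by less than their spread between areas, as did B2M. With zones within each field CD45 was also lower near (mean difference -41.2, exact p = 0.03125). The p-values within fields were not adjusted over measures.

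Whether the distance from Glul-high cells mattered differently in HIRA KO was tested by the interaction of genotype and zone. No gene of 997 passed (0 called, 0%, edgeR; 0 with DESeq2 and 0 with limma-voom), and 35 genes (3.51%) had an unadjusted p under 0.05. For Ahr the difference between the genotypes in the near to far log2 fold change was 0.00 ± 0.15 (adjusted p = 0.998). For Spp1 it was 0.46 ± 0.19 (unadjusted p = 0.0219, adjusted p = 0.971), the far excess being larger in control areas 1 and 3. For Clu it was 0.04 ± 0.21 (adjusted p = 0.99), and for the other 7 pericentral and periportal genes it lay between -0.26 (Apoa1) and 0.13 (Hmgcs1), with adjusted p of 0.971 or higher. Landmarks that had 2 others within 500 pixels numbered 29, 121 and 63 in control areas 1, 2 and 3 and only 5, 27 and 169 in the HIRA KO areas. With these alone, 5 genes were called, Apoa1, Apoc1, Arg1, Gpx1 and Sod1, all with a lower near to far value in HIRA KO (-1.24 to -0.89). The errors of these differences over all landmarks were 0.14 to 0.30, so a missed threshold does not show that the genotypes were alike.

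The 2 genotypes were compared within each zone in the same way. In both zones Igha, the heavy chain of IgA, was the only gene of 997 past the threshold (0.1%). In the near zone it was at 429, 457 and 435 CPM in the control areas and at 960, 1736 and 681 CPM in the HIRA KO areas (log2 fold change 1.36 ± 0.25, adjusted p = 0.0464, edgeR). In the far zone it was at 447, 423 and 413 CPM in the control areas and at 959, 921 and 747 CPM in the HIRA KO areas (1.03 ± 0.15, adjusted p = 0.00229). The groups did not overlap in either zone. Igha had a mean of 177.8 counts per sum over both groups, against 145.2 for the highest negative probe. Its control levels lay within the 373 to 525 CPM of Lgr5 in the far zone, a gene with a mean count below that probe. The near to far difference of Igha itself did not differ between the genotypes past the threshold (0.30 ± 0.23, adjusted p = 0.971), but with cells of 20000 to 40000 square pixels it did, at 0.89 (adjusted p = 0.0145, edgeR). Igkc (0.76) and Jchain (0.99), a light chain and the joining chain of immunoglobulins, were the other genes called there. Igha is a transcript of plasma cells, and without cells holding over 10% of other cell types' markers, of which Igha is one, its value was 0.43 (adjusted p = 0.386) near and 0.20 (adjusted p = 0.829) far. Leaving out any 1 area other than HIRA KO area 3 ended the call in the near zone (leave-one-out range 0.89 to 1.62), and leaving out 1 area never ended it in the far zone (0.96 to 1.14).

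**Figure D5:**
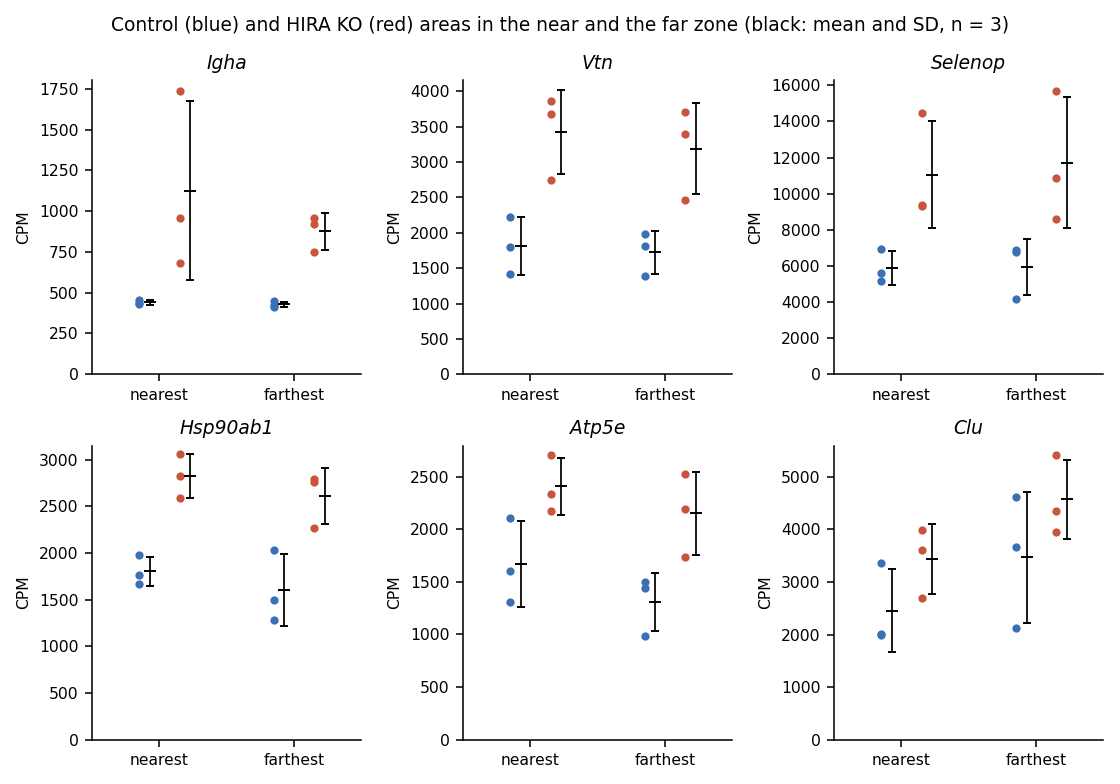
Level of 6 genes in the near and the far zone of control (blue) and HIRA KO (red) areas, in CPM (points, areas; black, mean and SD, n = 3). The groups do not overlap in either zone for Igha, Vtn, Selenop, Hsp90ab1 and Atp5e, and overlap for Clu. In the main edgeR fit, without the slide row as a block, Igha alone passed an adjusted p of 0.05.

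Groups without overlap were common, with 155 genes (15.5%) in the near and 127 genes (12.7%) in the far zone, so the count below has to be read against that share. Of all genes tested, 8.22% were higher and 7.32% lower in HIRA KO near without overlap, and 6.32% and 6.42% far. An unadjusted p under 0.05 was reached by 90 genes (9.03%) near and 80 genes (8.02%) far. Plasma proteins had high values in both zones, with 5 of 10 genes without overlap in each, all 5 higher in HIRA KO, and medians of 0.43 near and 0.63 far against 0.00 and -0.01 for all genes. None was called in the main edgeR fit, whereas DESeq2 called 12 genes near and 11 far, Vtn and Selenop among them in both zones. DESeq2 gave Igha no adjusted p in either zone, so Igha was not evaluated by it. The slide row as a block paired the control and HIRA KO area of the same area number, and the labels name no slide row. With it, edgeR called 2 genes near, Igha and Igkc, and 19 far. The latter held the plasma proteins Vtn (0.88, adjusted p = 0.000843), Selenop (0.97, adjusted p = 0.0197), Gc (1.02, adjusted p = 0.00963) and Ttr (1.48, adjusted p = 0.011). Without the block, DESeq2 also called these genes far (adjusted p of 0.00302 to 0.0158). So did edgeR with landmarks from 6 counts and 5% (adjusted p of 0.00553 to 0.0267), but not the main edgeR fit. In the main fit, Vtn, which encodes vitronectin, was at 1413 to 2227 CPM in control and 2747 to 3861 CPM in HIRA KO areas near (0.91 ± 0.21, adjusted p = 0.172, edgeR) and at 1383 to 1978 CPM and 2466 to 3703 CPM far (0.89 ± 0.22, adjusted p = 0.31). Selenop, the selenium carrier, which is also in the antioxidant list, was at 0.91 ± 0.27 near (adjusted p = 0.333) and 0.98 ± 0.35 far (adjusted p = 0.553). Both comparisons drew on the same 6 areas. Gene counts per 1000 square pixels and negative probe counts per megapixel were also higher in HIRA KO without overlap in both zones. The former were 5.19 to 9.09 in control and 9.53 to 10.02 in HIRA KO near, and 4.96 to 7.22 and 7.93 to 9.76 far. The latter were 21.3 to 43.1 and 44.7 to 50.3 near, and 25.6 to 33.9 and 43.7 to 45.7 far. Each gave an unadjusted p of 0.1 (exact permutation test, the smallest for 3 against 3 areas). Their part in the gene values was not tested.

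Of the remaining lists, the genes with the lowest p had the following values. In both zones Hsp90ab1 (0.65 near, 0.71 far), Atp5e (0.52 near, 0.72 far), H2-Aa (0.79 near, 0.84 far), Glud1 (0.23 near, 0.27 far) and Hbb (0.33 near, 0.37 far) had positive values, and Fasn (-0.32 near, -0.40 far) negative ones, with adjusted p of 0.333 or higher (edgeR). Hsp90ab1, Atp5e and H2-Aa were called under the row block in the far zone, with adjusted p of 0.00511, 0.00112 and 0.000189, as were Saa1/2 (0.0367) and C1qc (0.0197). Without the block, DESeq2 called Hsp90ab1 in both zones (adjusted p of 0.00446 near and 0.00609 far) and Atp5e far (0.00324). Near Glul-high cells the genes with the lowest p were also Wnt7b (-0.42), Ndrg1 (-0.41), Il1r1 (-0.35), Tie1 (-0.25), C1qa (0.47), Col3a1 (0.66, adjusted p = 0.172) and Clu (0.48). Far from them they were Fzd5 (-0.33), Ldha (0.54), Saa1/2 (0.50), Cd24a (-0.36), Vwf (-0.37), C1qc (0.54) and Col1a2 (0.36). The mean counts of Wnt7b, Col3a1 and Vwf lay below that of the highest negative probe. The 2 pericentral and 6 periportal genes lay between -0.10 and 0.22 near and between -0.24 and 0.39 far, and 0 of them were called in either zone.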

How the data were processed

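Per the file headers, the authors deposited unnormalised counts per target for each segmented cell (7557143 transcripts, 6.89% of them outside cells) and a table of cell areas, positions and mean stain intensities (pixel size, background handling and software versions are not given in the sources used here). Outlines, field positions and single transcripts were not used. No other column of per-sample values was used or left over (0). Distances were Euclidean, between cell centres of 1 area. Counts were summed per area and zone, without Glul and the 10 negative probes. Tests used edgeR 4.0.16 (R 4.3.3, TMM factors 0.902 to 1.08, filterByExpr, Benjamini-Hochberg at 0.05), checked on simulated data, and exact permutation tests for single values. The simulated counts held no differences in profile between areas, so that check does not cover them. DESeq2 1.42.0 and limma 3.58.1 were alternatives. CPM are TMM-scaled, except for Glul, in sixths and within fields. The total for Glul by zone included Glul, and that in sixths did not.

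The members and lists were chosen with earlier results of these data known. Named were genes past the threshold with 1 direction in 6 areas (or groups without overlap) and more counts on average than the highest negative probe, all measured pericentral and periportal genes, and the gene with the lowest p of each other list. For genotype comparisons the last part was applied to each zone. Of the 1000 targets, 303 had a mean count at or below the highest negative probe. Doublets were not called. Intervals between areas cover no difference between mice beyond these areas.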

Additional observations from a re-analysis of the deposited data

How the results depend on the processing

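The number of genes called is given where it differed by over 1.5 times from that reported, 4 genes near against far, 0 for the interaction and 1 for HIRA KO against control in each zone. Values in brackets are log2 fold changes or, for single measures, near minus far differences, and the cause of a change was not tested. Glul-high cells of hepatocyte size only gave calls numbering 9 for near against far and 0 for HIRA KO against control near. Arg1 (0.082) and Ighm (-0.0063) then turned direction in near against far. Pigr (0.080) then turned direction in the interaction. Median DAPI intensity (-36.4) then moved across the threshold or turned, near minus far. Glul-high cells with 2 others within 500 pixels only gave calls numbering 0 for near against far, 5 for the interaction and 12 for HIRA KO against control far. Arg1 (0.28), Pigr (0.063) and Pdgfrb (0.089) then turned direction in near against far. Lgr5 (0.065), Hmgcs1 (-0.43) and Cdh1 (-0.0076) then turned direction in the interaction. Saa1/2 (-0.0044) then turned direction in HIRA KO against control far. Median gene counts per cell (17.7) and gene counts per 1000 square pixels (0.60) then moved across the threshold or turned, near minus far. 1 pair of distance limits for all areas gave calls numbering 9 for near against far, 0 for HIRA KO against control near and 0 for HIRA KO against control far. Arg1 (0.088) then turned direction in near against far. Lgr5 (0.031) then turned direction in the interaction. Median PanCK intensity (-151) and median CD3 intensity (-34.1) then moved across the threshold or turned, near minus far. Cells with over 10% other cell type counts left out gave calls numbering 0 for near against far, 0 for HIRA KO against control near and 0 for HIRA KO against control far. H2-Aa (0.016) then turned direction in near against far. Zones within each field of view gave calls numbering 1 for near against far, 2 for HIRA KO against control near and 2 for HIRA KO against control far. Lgr5 (0.43), Arg1 (0.23), Pigr (0.26), Apoa1 (0.28), Cdh1 (-0.035) and Igf1 (0.012) then turned direction in the interaction. Median gene counts per cell (21.2), median distance to biliary-type cells (-29.8), median B2M intensity (-212), median CD45 intensity (-41.2) and median DAPI intensity (-42.2) then moved across the threshold or turned, near minus far. DESeq2 gave calls numbering 2 for near against far, 12 for HIRA KO against control near and 11 for HIRA KO against control far. The fit with no area block gave calls numbering 0 for near against far. The fit without both areas numbered 1 gave calls numbering 2 for near against far. Field of view as a block gave calls numbering 2 for near against far. Apoa1 (-0.10), Ldha (-0.064), Hsp90ab1 (-0.0026) and Atp5e (-0.013) then turned direction in near against far. Arg1 (0.45), Pigr (0.19), Cdh1 (-0.019) and Igf1 (0.15) then turned direction in the interaction. Glul-high from 6 counts and 5% gave calls numbering 2 for the interaction and 10 for HIRA KO against control far. Arg1 (0.17), Pdgfrb (0.020) and H2-Aa (0.083) then turned direction in near against far. Lgr5 (0.016), Ahr (-0.010) and Hmgcs1 (-0.30) then turned direction in the interaction. Median gene counts per cell (16.8), gene counts per 1000 square pixels (0.61) and negative probe counts per megapixel (-0.027) then moved across the threshold or turned, near minus far. Cell area 20000 to 40000 gave calls numbering 3 for the interaction, 3 for HIRA KO against control near and 0 for HIRA KO against control far. Glul-high from 3 counts and 2% gave calls numbering 0 for HIRA KO against control near and 0 for HIRA KO against control far. Apoa1 (0.041) then turned direction in the interaction. Gene counts per 1000 square pixels (0.70), negative probe counts per megapixel (4.09), median B2M intensity (-266) and median CD45 intensity (-28.1) then moved across the threshold or turned, near minus far. Cells within 250 pixels left out gave calls numbering 0 for HIRA KO against control near. Arg1 (0.0076) then turned direction in near against far. Zones of 1 in 4 cells gave calls numbering 0 for HIRA KO against control near. Lgr5 (0.15) and Pigr (0.00094) then turned direction in the interaction. Library size only gave calls numbering 0 for HIRA KO against control near. Pigr (0.0077) then turned direction in the interaction. Limma-voom gave calls numbering 0 for HIRA KO against control near. Slide row as a block gave calls numbering 2 for HIRA KO against control near and 19 for HIRA KO against control far. Nearest Glul-high cell of the same field of view gave calls numbering 0 for HIRA KO against control far. Lgr5 (0.019), Hmgcs1 (-0.063) and Cdh1 (-0.00064) then turned direction in the interaction. Median cell area (1245), gene counts per 1000 square pixels (0.74) and negative probe counts per megapixel (5.15) then moved across the threshold or turned, near minus far. At least 50 gene counts per cell changed no number of calls past 1.5 times. Ahr (-0.0076) then turned direction in the interaction.

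Leaving out each area in turn gave ranges of 1 to 12 for calls of near against far, 0 to 2 for calls of HIRA KO against control near, 1 to 2 for calls of HIRA KO against control far, -0.18 to 0.11 for Arg1 in near against far, -0.097 to 0.015 for Igf1 in near against far, -0.29 to 0.0017 for Lgr5 in the interaction, -0.10 to 0.11 for Ahr in the interaction, -0.64 to 0.15 for Arg1 in the interaction, -0.16 to 0.078 for Pigr in the interaction, -0.57 to 0.0057 for Apoa1 in the interaction, -0.52 to 0.070 for Fasn in HIRA KO against control near, -0.054 to 0.50 for Hbb in HIRA KO against control near, 20.3 to 28.9 for median gene counts per cell, 0.68 to 1.01 for gene counts per 1000 square pixels, -35.5 to 1.68 for median CD45 intensity and -24.2 to 52.6 for median DAPI intensity.

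The labels give the groups no replicate number in common and name no slide row. The slide row as a block paired the areas of both genotypes by area number, and the area block paired the near and far cells of 1 area. A test over 5 areas cannot pass 0.05 for the single measures. Depth limits sparse genes, 303 targets being at or below the highest negative probe. The alternative with zones within fields, that with fields as a block and that without both areas numbered 1 were added after seeing the data. A stricter definition of biliary-type cells found none in 1 area, and the near zone lay farther from them in 4 of the other 5.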
